A study of Mus musculus with 39 samples.

Results

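The comparison described here sets the lung of wild-type (WT) mice against their liver. Its members were chosen by label alone, as every array labelled wild-type, and they are 7 of the 39 arrays in the series, with 4 lung arrays and 3 liver arrays. The study followed lungs and livers of 2 mouse lines that model Gaucher disease, a lysosomal lipid storage disease, and set them against WT tissue. The mutant lines were 9V/null and 4L, each with 2 arrays per tissue and age. All 7 WT arrays are of 28 weeks. The study's methods give the background-matched WT controls as adults with a mixed background of 50% FVB, the rest being C57BL/6J and 1 further strain at 25% each, which 9V/null mice shared, while 4L mice had no FVB part. The RNA of each array was pooled from 3 mice, so that an array stands for a pool and not for a mouse, and whole organs were taken with no cell type sorted. The sex of the mice is not stated. Whether lung and liver pools of one number came from the same mice is not given either, and p-values measure only the spread between arrays.

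The liver is built mostly of hepatocytes, which make the proteins of blood plasma, turn ammonia into urea, make bile acids, and store and release glucose, and its sinusoids are lined by a fenestrated endothelium and hold Kupffer cells, the resident macrophages. The lung is built of airways lined by club and ciliated cells and of alveoli lined by flat type I cells and by cuboidal type II cells, which secrete surfactant. Its alveoli are wrapped in dense capillaries and hold alveolar macrophages in the air space. In Gaucher disease the lipid-laden cell is the macrophage.

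A level is the log2 of an array signal, with signals under 16 set to 16, a level of 4.00. A difference is the mean level of the 4 lung arrays minus that of the 3 liver arrays, so that a negative value means higher in liver. A gene was called at an adjusted p of at most 0.01 in limma, a linear model with a moderated spread, and a fold of at least 1.8, and strongly called at a fold of at least 8. A gene is given by 1 probe set, and levels of different genes are not compared, since probe sets differ in brightness. Related genes such as those of the Cyp, Ugt, Ear and H2 families may share probes. The 80 probe sets of olfactory and vomeronasal receptors served as background, and their 95th percentile lay between 7.68 and 8.63 on the 7 arrays. An organ was within background for a gene where all its arrays were at or under this level, and the fold is then given as a lower bound against it.

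Several features of the arrays stand before the results. Over all probe sets, lung arrays had Spearman correlations of 0.968 to 0.973 with each other, liver arrays 0.918 to 0.923, and lung with liver arrays 0.760 to 0.786. Hepatocyte genes differed among the lung arrays, with a mean level over 19 secreted proteins of 10.92 and 10.64 on lung arrays 1 and 2 and of 9.88 and 9.74 on lung arrays 3 and 4. Liver array 2 stood apart in skeletal muscle genes, with a mean level of 11.30 over 7 genes against 5.47 and 5.41 on the other liver arrays. Markers of sex also varied within each organ. Xist, the RNA of the inactive X chromosome, was at 13.69, 10.72, 8.01 and 11.50 in lung and 7.49, 13.39 and 12.20 in liver, and the Y-linked Kdm5d was at 6.30, 9.90, 10.32 and 9.51 in lung and 9.84, 8.26 and 9.26 in liver. Cyp2b9, a P450 of female liver, was at 8.41, 14.46 and 14.44 on the liver arrays. The part of sex in the results was not tested.

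The share of genes higher in either organ depended on the scaling. The deposited signals have the same trimmed mean on every array, yet the median signal was 349.1 to 427.7 on lung arrays and 209.7 to 248.9 on liver arrays. With that scaling 4975 of 18193 genes were called higher in lung, 27.3% of all, and 2462 higher in liver, 13.5%, so that 66.9% of the calls were toward lung, and the median difference of all genes was 0.29. With each array centred on its median the calls were 3041 and 4268, 41.6% toward lung, with a median of -0.40. With quantile normalization they were 3711 and 3277, 53.1% toward lung, with a median of -0.09. A gene is therefore called higher below only where all 3 scalings called it in the same direction, unless stated. These were 3012 genes in lung, 16.6% of all, and 2269 in liver, 12.5%. Strong calls under all 3 scalings numbered 994 in lung, 5.46%, and 690 in liver, 3.79%. The liver was within background for 735 of the 994 and the lung for 295 of the 690. Over all 18193 genes the liver was within background for 7325 and the lung for 5150.

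**Figure D1:**
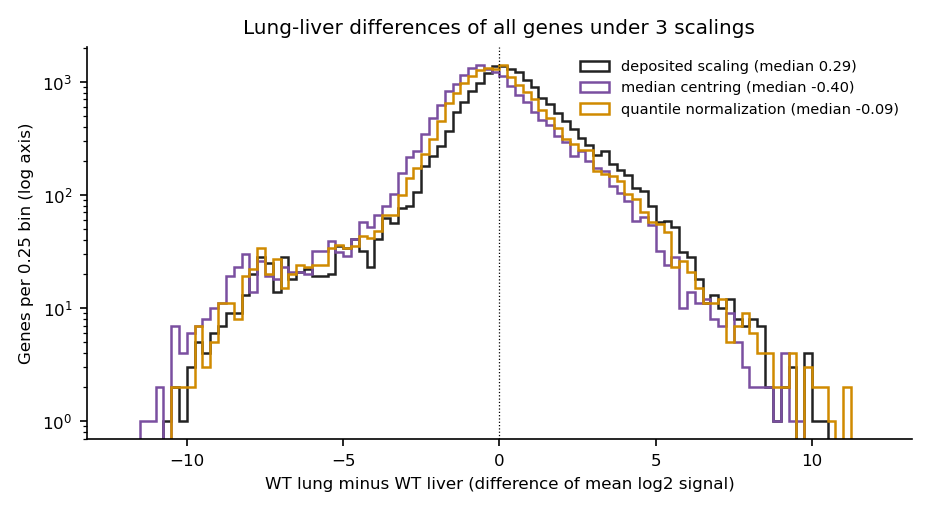
Histogram of the lung minus liver difference (x axis, difference of mean log2 signal) of 18193 genes under the deposited scaling, median centring and quantile normalization, with the number of genes per bin on a log axis (y axis). The distributions are shifted against each other, with medians of 0.29, -0.40 and -0.09.

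Promoter windows of some genes named in the results are printed here as a description. They are the 250 bases before the transcription start in RefSeq (GRCm38.p6), in the direction of the gene. Capitals mark only the letters named here for that gene, and other searched letters are left in lower case. In Cyp8b1, the sterol 12-alpha-hydroxylase of bile acid synthesis, the capitals match CAAAGTCCA, searched for HNF4, 67 to 59 bases before the start. In Ahsg, the plasma protein fetuin-A, they match TTNNGCAAT, searched for C/EBP, 32 to 24 bases before the start.
Cyp8b1, chr9:121916306-121916555, minus strand: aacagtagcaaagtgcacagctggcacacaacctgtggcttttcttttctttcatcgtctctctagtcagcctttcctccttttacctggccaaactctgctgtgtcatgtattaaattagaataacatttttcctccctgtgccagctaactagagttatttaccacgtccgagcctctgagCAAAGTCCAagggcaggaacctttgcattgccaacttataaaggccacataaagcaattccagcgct
Ahsg, chr16:22891765-22892014, plus strand: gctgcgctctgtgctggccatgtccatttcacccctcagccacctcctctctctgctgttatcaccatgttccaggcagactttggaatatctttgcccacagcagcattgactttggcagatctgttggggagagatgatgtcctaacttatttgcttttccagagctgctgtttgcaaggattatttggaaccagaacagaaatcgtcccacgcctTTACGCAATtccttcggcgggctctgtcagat
Of the lung genes, the windows of Sftpa1, surfactant protein A, and Cxcl15, the chemokine lungkine, held TATAAA 30 to 25 and 27 to 22 bases before the start. The liver window of Cyp8b1 also holds TATAAA near its end, in lower case.
Sftpa1, chr14:41131538-41131787, plus strand: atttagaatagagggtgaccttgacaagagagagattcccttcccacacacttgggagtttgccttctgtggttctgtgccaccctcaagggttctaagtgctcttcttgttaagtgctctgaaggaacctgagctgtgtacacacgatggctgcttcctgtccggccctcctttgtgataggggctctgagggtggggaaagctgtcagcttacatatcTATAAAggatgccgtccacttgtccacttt
Cxcl15, chr5:90794284-90794533, plus strand: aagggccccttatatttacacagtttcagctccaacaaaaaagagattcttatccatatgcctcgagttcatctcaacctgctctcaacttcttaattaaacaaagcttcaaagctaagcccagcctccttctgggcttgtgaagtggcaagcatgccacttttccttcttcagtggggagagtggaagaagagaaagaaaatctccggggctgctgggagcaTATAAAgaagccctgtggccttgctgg

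The same letters were counted on both strands in all 32851 windows of the table, in the 18109 windows of measured genes and in those of strongly called genes, of which 552 of 690 liver genes and 746 of 994 lung genes matched by symbol. CAAAGTCCA was in 2.33% of 688 liver windows, 0.312% of 962 lung windows, 0.42% of the windows of measured genes and 0.384% of all windows, and TTNNGCAAT in 4.22%, 1.77%, 1.56% and 1.93% in the same order. CACTCAAG, searched for the lung factor NKX2-1, was in 0.436%, 0.624%, 0.812% and 0.965%, and TATAAA in 15.8%, 9.04%, 8.81% and 12.4%. The liver windows held CAAAGTCCA, TTNNGCAAT and TATAAA at a higher share than the lung windows or those of measured genes, and CACTCAAG was below the share of measured genes in both organs. In the printed windows 0 matches overlapped each other. A match describes letters and not a binding site, and windows of the same gene can overlap.

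Genes of liver cells and functions were mostly higher in liver. Over 13 lists of liver cell types and functions, 134 of 168 measured genes were called higher in liver, 11 higher in lung and 23 in neither direction, beside the 12.5% and 16.6% of all genes. In whole organs, fewer cells of a type and less RNA per cell cannot be told apart, here or below. Lect2, a cytokine secreted by hepatocytes, was at 14.35, 14.89 and 14.84 in liver and at 4.00, 4.00, 4.35 and 4.00 in lung, at least 91.9-fold higher in liver (adjusted p = 2.5e-17). F12, coagulation factor XII, was at 14.71, 14.68 and 14.87 in liver and at 4.85, 4.47, 4.00 and 4.00 in lung, at least 95.4-fold higher (adjusted p = 6.5e-19). Both were at or near the floor of the signal on every lung array. They belong to the 12 liver genes named by the size of the fitted difference, whose order was not measured, since the lung was within background for all 12. Others of the 12 were Amdhd1, of histidine breakdown (at least 70.4-fold), Hsd17b2, a steroid dehydrogenase (at least 113-fold), Ces2a, a carboxylesterase (at least 134-fold), and Serpina12, a protease inhibitor (at least 124-fold). The remaining 6 were Cyp2j5 and Cyp3a25, which are P450 enzymes (at least 174-fold and at least 229-fold), Haao, of tryptophan breakdown (at least 132-fold), Igfbp1, a binding protein of insulin-like growth factors (at least 102-fold), Timd2, a ferritin receptor (at least 54.4-fold), and Apof, an apolipoprotein (at least 213-fold).

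All 19 measured secreted plasma proteins were higher in liver, with a median difference of -6.39. Apob, the structural protein of very-low-density lipoprotein, was at 16.42, 16.39 and 15.94 in liver and at 9.14, 9.23, 8.44 and 7.84 in lung (difference -7.59, SE 0.45, adjusted p = 1.3e-12). Fgb, fibrinogen beta, was at 16.68, 16.81 and 16.67 in liver and 9.33, 9.02, 7.74 and 8.21 in lung, a difference of -8.14 (SE 0.78), and Fga, fibrinogen alpha, and Ahsg differed by -6.38 (SE 0.76) and -8.26 (SE 1.08). For these the lung levels were highest on arrays 1 and 2, the same arrays that led in the list as a whole. Alb, albumin, was at 14.16, 13.86, 13.19 and 12.72 in lung against 16.73, 16.78 and 16.55 in liver (difference -3.20, SE 0.76, adjusted p = 0.0012), the smallest difference of the list. Rbp4, the retinol carrier, was at 12.09 to 12.64 in lung, against 16.52 to 16.74 in liver. Without lung arrays 1 and 2, an alternative chosen after seeing the data, all 19 were called again, and 18 were called without lung array 3 or 4 or without any 1 of the liver arrays. The part of the difference between lung arrays in these values was not tested.

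Urea formation and amino acid breakdown were higher in liver in 14 of 15 measured genes, with a median of -6.93. Otc, ornithine transcarbamylase of the urea cycle, was at 15.82, 15.59 and 15.81 in liver and at 8.33, 7.59, 8.03 and 7.51 in lung (difference -7.87, SE 0.65, adjusted p = 4.2e-10). Arg1, arginase, differed by -7.80 (SE 0.69) and Tdo2, the first enzyme of tryptophan breakdown, by -7.50 (SE 0.42), while Hgd, of tyrosine breakdown, was at least 209-fold higher. The exception was Glul, glutamine synthetase, which fixes ammonia in many tissues. It was at 14.72, 14.93 and 15.22 in liver and at 13.86, 14.23, 13.97 and 14.21 in lung (difference -0.89, SE 0.23, adjusted p = 0.0031), called with the deposited scaling and not with quantile normalization, where the difference was -0.09. Ass1, argininosuccinate synthase, was at 9.48, 10.85 and 8.94 in liver, at least 3-fold higher than in lung.

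All 16 genes of bile acid synthesis and transport were higher in liver, with a median of -6.24, or -5.75 with the 7 genes within background in lung set at their bounds. Baat, which joins bile acids to amino acids, was at 13.94, 13.74 and 13.81 in liver and at 5.85, 5.11, 4.00 and 4.00 in lung, at least 50.4-fold higher (adjusted p = 6.5e-12). Slc10a1, the sodium-coupled uptake transporter, was at least 197-fold higher, and Slc27a5, the bile acid CoA ligase, differed by -7.40 (SE 0.47) and Slco1b2, a hepatocyte uptake transporter, by -7.59 (SE 0.59). Cyp8b1 was at 14.60, 14.31 and 14.69 in liver and 8.91, 8.62, 8.47 and 8.69 in lung (difference -5.86, SE 0.30, adjusted p = 9.7e-14). The smallest differences were those of Cyp27a1, sterol 27-hydroxylase, at -3.91 (SE 0.15), and of Hsd3b7 at -3.63 (SE 0.15). Their lung levels, 11.29 to 11.40 and 12.30 to 12.38, were above background on every array.

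All 14 genes of drug metabolism and all 11 of glucose and fructose metabolism were higher in liver, with medians of -5.20 and -4.87, or -5.16 and -4.51 with bounds. Cyp1a2, a P450 of hepatocytes around the central vein, was at 16.34, 15.71 and 16.21 in liver and at 10.46, 9.19, 7.17 and 7.84 in lung (difference -7.42, SE 0.64, adjusted p = 8.9e-10). Its lung level was also highest on arrays 1 and 2. Ugt2b5 and Ugt2b1, which join glucuronic acid to foreign compounds, differed by -8.37 (SE 0.85) and -7.90 (SE 0.60), and Nr1i3, the receptor CAR that senses such compounds, was at least 28-fold higher. Cyp2c37 was at 8.12, 10.46 and 10.57 in liver, with array 1 below the others, and within background in lung. G6pc, the subunit of glucose-6-phosphatase that lets the liver release glucose, was at 15.48, 14.82 and 14.79 in liver and at 7.44, 7.80, 7.20 and 7.27 in lung, at least 116-fold higher (adjusted p = 3.3e-12). Gys2, liver glycogen synthase, was at least 22.8-fold higher, and Slc2a2, the hepatocyte glucose transporter, and Fbp1, fructose bisphosphatase, differed by -7.09 (SE 0.83) and -6.99 (SE 0.45). Other members also had high lung levels. Pygl, liver glycogen phosphorylase, was at 12.18 to 12.51 in lung (difference -2.90), Adh1, alcohol dehydrogenase, at 13.18 to 13.52 (difference -3.06), and Gsta3, a glutathione transferase, at 12.83 to 13.13 (difference -3.25).

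Fatty acid oxidation was higher in liver in 9 of 11 genes, with a median of -4.18. Slc27a2, which takes up and activates long-chain fatty acids, was at 16.20, 16.17 and 16.33 in liver and at 8.74, 9.02, 8.45 and 8.16 in lung (difference -7.64, SE 0.29, adjusted p = 6.3e-16). Ehhadh, of peroxisomal oxidation, differed by -5.80 (SE 0.23), Bdh1, of ketone bodies, by -4.91 (SE 0.23), and Fabp1, the liver fatty acid binding protein, by -4.59 (SE 0.39), with lung levels of 11.91 to 12.43. The Cpt1a transferase, which admits fatty acids to mitochondria, and the dehydrogenase Acadl differed by -0.85 (SE 0.22) and -1.16 (SE 0.18), called with the deposited scaling and not under all 3.

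Cholesterol and fatty acid synthesis was higher in liver for part of its genes. Of 15 measured genes 8 were higher in liver and 7 in neither direction, with a median of -1.33. Dhcr7, the last enzyme of cholesterol synthesis, was at 12.94, 12.28 and 12.71 in liver and at 10.12, 10.48, 10.14 and 10.13 in lung (difference -2.42, SE 0.24, adjusted p = 8.5e-09), and Fdps, Hmgcs1 and Cyp51 of the same pathway differed by -2.0 (SE 0.22), -1.90 (SE 0.20) and -1.76 (SE 0.18). Sqle, squalene epoxidase, was at 12.74, 12.10 and 11.73 in liver and 12.02 to 12.21 in lung (difference -0.10, SE 0.23, adjusted p = 0.78), and its arrays overlapped. Acly, which supplies acetyl-CoA for lipid synthesis, was at 13.83 to 14.11 in lung and 13.45 to 14.06 in liver (difference 0.34, SE 0.30, adjusted p = 0.41). Hepatocytes make lipid for lipoproteins and type II cells make it for surfactant.

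**Figure D2:**
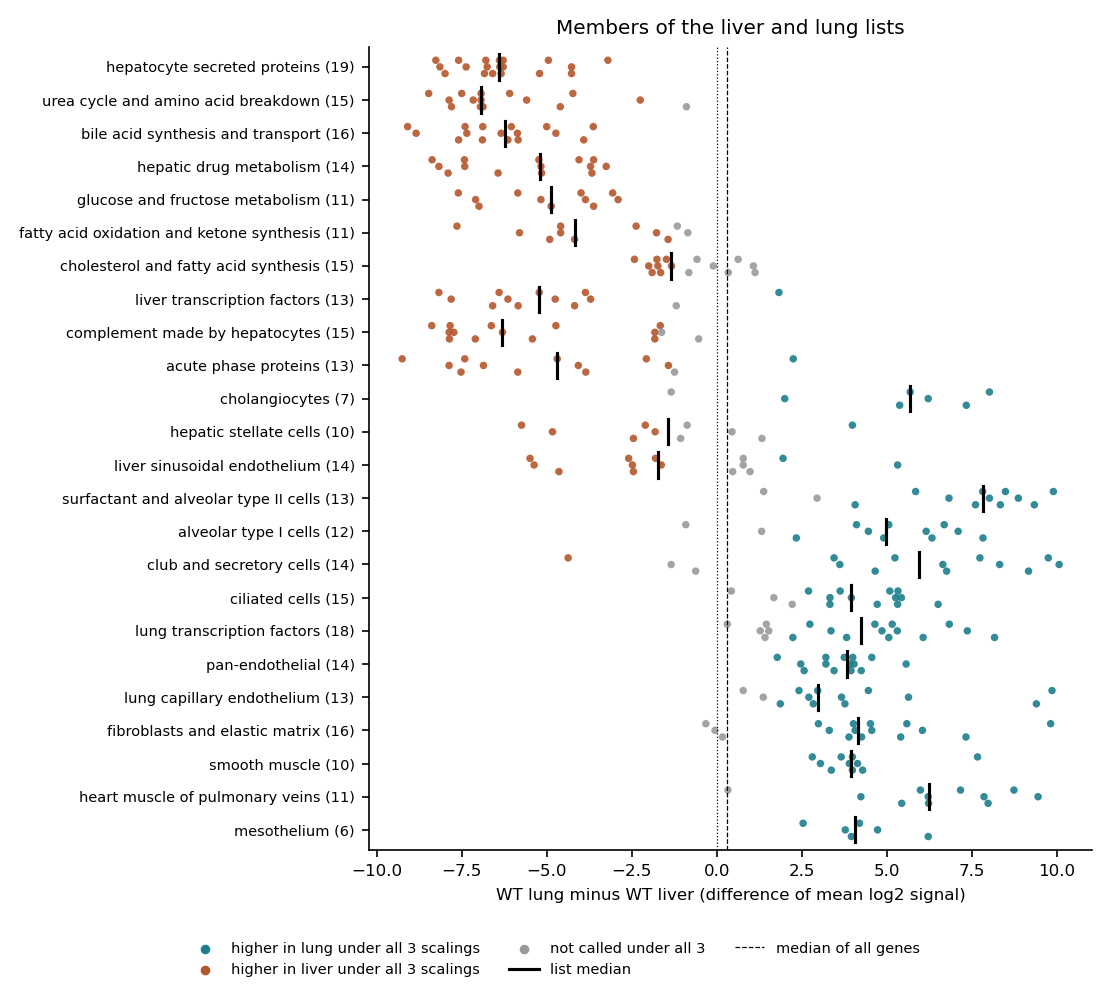
Lung minus liver difference (x axis, difference of mean log2 signal) of each measured member of 24 lists of liver and lung cell types and functions (y axis), with 1 point per gene coloured by the call under all 3 scalings, and list medians as bars. The median was -6.39 for secreted plasma proteins and 7.82 for alveolar type II cells, and cholangiocytes are the liver list that lies on the lung side.

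Transcription factors of the liver followed the same direction in 11 of 13 cases, with a median of -5.22, or -4.2 with bounds. Hnf4a, the nuclear receptor that directs many hepatocyte genes, was at 15.23, 14.94 and 15.11 in liver and at 8.66, 7.15, 5.78 and 7.54 in lung (difference -7.81, SE 0.56, adjusted p = 3.5e-11). Foxa3 was at least 27.4-fold higher, and Creb3l3, of the fasting response, differed by -6.59 (SE 0.54). Cebpa, which type II cells also use, was at 13.30 to 13.52 in lung and 14.24 to 14.97 in liver (difference -1.19, SE 0.19) and was not called under all 3 scalings. Tbx3, a T-box factor, went the other way, at 12.01 to 12.23 in lung and 10.01 to 10.61 in liver (difference 1.83, SE 0.27, adjusted p = 4.4e-06), and was not called under all 3 scalings without liver array 1 or without liver array 2.

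Complement was higher in liver in 13 of 15 measured genes, with a median of -6.30, or -5.66 with bounds, and acute phase proteins in 11 of 13, with a median of -4.69, or -3.85 with bounds. C8b, of the membrane attack complex, was at 15.10, 14.68 and 14.56 in liver and at least 97.6-fold higher than in lung. C8a, of the same complex, was at 15.81, 14.92 and 15.30 in liver and at least 144-fold higher. Their partner C8g differed by -7.86 (SE 0.44) and Mbl2, mannose-binding lectin, by -7.84 (SE 0.55). By contrast Hc, which encodes C5, was at 14.89, 14.49 and 14.52 in liver and at 14.09 to 14.15 in lung (difference -0.53, SE 0.18, adjusted p = 0.024). C6 was at 14.40, 12.97 and 13.68 in liver and at 11.95 to 12.14 in lung (difference -1.62, SE 0.65, adjusted p = 0.049). Neither passed the test. Among acute phase proteins, Apcs, serum amyloid P, was at least 128-fold higher, Crp, C-reactive protein, at least 187-fold, and Saa4 at least 87.9-fold, with Saa4 at 15.58, 14.56 and 13.75 across the liver arrays. Orm1, orosomucoid, differed by -7.41 (SE 0.41) and Serpina3n by -1.42 (SE 0.23). Hp, haptoglobin, had lung levels of 14.87 to 15.13 against 16.09 to 16.35 in liver (difference -1.24, SE 0.16), not called with quantile normalization. Lcn2, lipocalin 2, was the member higher in lung, at 12.52, 12.80, 12.68 and 12.37 with a liver mean of 10.34 (difference 2.25, SE 0.23, adjusted p = 2.0e-08).

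The bile duct list lay on the lung side. Of 7 measured markers 6 were higher in lung, and they include genes of simple epithelium that airways and alveoli also use. Krt19 was at 13.37, 13.70, 13.71 and 13.68 in lung and at 7.76, 8.16 and 6.25 in liver, at least 34.8-fold higher in lung (adjusted p = 1.0e-12). Krt7 was at least 48.4-fold higher, the membrane mucin Muc1 at least 32.5-fold and the adhesion protein Epcam at least 10.9-fold, while Krt23 was at 9.25, 8.45 and 9.81 in liver, a difference of 2.0 (SE 0.31). Sox9, the duct transcription factor, was at 9.00, 7.99 and 7.86 in liver and at 7.28, 6.94, 6.28 and 7.29 in lung (difference -1.34, SE 0.50, adjusted p = 0.035). Stellate cells, which store vitamin A in liver, were mixed, with 5 of 10 genes higher in liver and 1 in lung. The collectin Colec10 was at least 13.1-fold higher in liver, Colec11 differed by -4.83 (SE 0.27), and the transcription factor Hand2 was at least 2.33-fold higher. Des, desmin, which muscle also makes, was at 12.00 to 12.47 in lung and 6.54, 9.03 and 9.09 in liver (difference 3.99, SE 0.53), lowest on liver array 1.

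Genes of lung cell types were mostly higher in lung. Over 11 lists, 121 of 142 measured genes were called higher in lung, 1 in liver and 20 in neither direction, beside the 16.6% and 12.5% of all genes. Of the 12 lung genes named by the size of the fitted difference, 11 are members of the lists below and 1 is not. That one is Scnn1g, a subunit of the epithelial sodium channel that clears fluid from the air space, at 12.85, 13.10, 13.40 and 13.18 in lung and at 4.00, 4.2 and 4.00 in liver, at least 25-fold higher (adjusted p = 1.6e-13). The liver was within background for all 12, so their order was not measured.

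Alveolar type II cells gave 11 of 13 measured genes higher in lung, with a median of 7.82, or 6.11 with bounds. Sftpa1 was at 15.84, 15.96, 15.93 and 15.82 in lung and at 8.21, 7.27 and 6.71 in liver, at least 168-fold higher (adjusted p = 4.3e-10). Sftpc, surfactant protein C, was at 15.70, 15.50, 15.70 and 15.80 in lung and at 7.36, 7.69 and 6.96 in liver, at least 146-fold higher. The 4 lung arrays lay close together for both. Napsa, a protease that processes surfactant protein B, was at least 69.2-fold higher, Chia1, a chitinase, at least 42.5-fold and Cldn18, a tight junction protein, at least 75.8-fold. The exceptions were Abca3, the transporter of surfactant lipid into lamellar bodies, and Lyz1, a lysozyme, which were called with the deposited scaling and not under all 3. Abca3 was at 13.93 to 14.24 in lung and 12.52 to 12.80 in liver (difference 1.38, SE 0.34), and Lyz1 at 9.59 to 10.42 in lung with the liver within background.

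Alveolar type I cells gave 10 of 12 genes, with a median of 4.99, or 4.68 with bounds. Aqp5, a water channel, was at 13.62, 14.01, 14.18 and 13.87 in lung and at 5.58, 7.48 and 5.22 in liver, at least 43.1-fold higher (adjusted p = 7.0e-13). Ager, the receptor RAGE, differed by 6.69 (SE 0.55), Cav1, caveolin-1, which endothelium also makes, by 6.33 (SE 0.21), and Clic5 was at least 62.6-fold higher. Hopx was at 15.51 to 15.64 in lung and at 13.93 to 14.56 in liver (difference 1.32, SE 0.22), and Igfbp2 at 14.08 to 14.37 in lung and 14.90 to 15.36 in liver, a difference of -0.91 (SE 0.20) that was -0.03 with quantile normalization. Both had high levels in liver too.

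Club and secretory cells gave 11 of 14 genes higher in lung and 1 in liver, with a median of 5.95, or 3.89 with bounds. Scgb1a1, the club cell secretory protein, was at 16.13, 16.07, 16.22 and 16.16 in lung and at 5.71, 7.86 and 7.35 in liver, at least 201-fold higher (adjusted p = 5.8e-08). Scgb3a2, another secretoglobin, was at least 137-fold higher, Cbr2, a carbonyl reductase, at least 151-fold, and Bpifa1, an antimicrobial airway protein, at least 75.9-fold. The exceptions were enzymes. Cyp2f2, the P450 that activates naphthalene in club cells, was at 15.62 to 15.81 in lung and 16.25 to 16.38 in liver (difference -0.62, SE 0.15, adjusted p = 0.0014), below the fold for a call, and the difference was 0.66 with quantile normalization. Aldh1a7, an aldehyde dehydrogenase, was at 13.84 to 14.03 in lung and 14.90 to 15.51 in liver (difference -1.34, SE 0.16), and Ldhd, a lactate dehydrogenase, was the member higher in liver, at 13.49, 12.94 and 13.32 against 8.67 to 9.02.

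Ciliated cells gave 12 of 15 genes, with a median of 3.96, or 2.27 with the 14 genes within background in liver at their bounds. Tppp3 was at 14.02 to 14.29 in lung and at least 50.2-fold higher, Dynlrb2, a dynein chain, at 12.88 to 12.92 and at least 21.3-fold higher, and Ccdc153 and Ccdc113 were at least 12.5-fold and at least 2.34-fold higher. Dnah5, a heavy chain of the ciliary motor, was at 9.18, 9.01, 8.73 and 8.19 in lung, near background (adjusted p = 0.079). Tubb4b, a tubulin of cilia that other cells also use, was the member above background in liver, at 13.81 to 13.96 against 14.17 to 14.46 in lung (difference 0.43, SE 0.16, adjusted p = 0.032).

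Lung transcription factors were higher in lung in 13 of 18 cases, with a median of 4.24, or 2.57 with bounds. Tbx4, of lung mesenchyme, was at 12.69, 12.88, 12.90 and 12.55 in lung and at 4.00, 4.29 and 5.45 in liver, at least 19.2-fold higher (adjusted p = 2.6e-12). Sox2, of airway epithelium, was at 11.46, 11.46, 11.04 and 11.52 in lung and at the floor on all liver arrays, at least 7.37-fold higher, and Elf5 and Klf5 were at least 7.53-fold and at least 15.2-fold higher. Foxa1 and Foxa2, which endoderm of both organs uses, were at 13.03 to 13.09 and 12.17 to 12.53 in lung and at 11.24 to 12.12 and 11.95 to 12.16 in liver, and Foxa2 differed by 0.31 (SE 0.20). Nkx2-1, which specifies lung epithelium, was at 8.42, 8.93, 8.77 and 8.23 in lung, close to background, and at 8.01, 7.75 and 5.42 in liver (difference 1.53, SE 0.67, adjusted p = 0.07).

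Vessels differed in both directions. All 14 pan-endothelial genes were higher in lung, with a median of 3.84. Vwf, von Willebrand factor, was at 14.03, 14.09, 14.22 and 14.17 in lung and at 8.59, 8.81 and 8.26 in liver (difference 5.57, SE 0.41, adjusted p = 4.8e-11). Pecam1 differed by 4.56 (SE 0.26), Cldn5, of tight junctions, by 4.25 (SE 0.17), and the smallest difference was 1.78 (SE 0.22) for Robo4. Lung capillary genes were higher in lung in 11 of 13 cases. Aplnr, the apelin receptor, was at 14.63, 14.52, 14.71 and 14.90 in lung and at 6.49, 4.00 and 4.00 in liver, at least 73.4-fold higher (adjusted p = 6.1e-14), Tmem100 was at least 60.3-fold higher and Car4, a carbonic anhydrase of the capillary surface, at least 29.4-fold. Hpgd, which inactivates prostaglandins, was at 14.89 to 14.92 in lung and 13.67 to 14.41 in liver (difference 0.78, SE 0.21, adjusted p = 0.0033), short of the fold for a call.

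Liver sinusoidal endothelium gave 8 of 14 genes higher in liver and 2 higher in lung, with a median of -1.71. Stab2, a scavenger receptor for hyaluronan, was at 11.32, 11.77 and 11.64 in liver and at 7.81, 7.21, 6.25 and 6.46 in lung, at least 10.6-fold higher in liver (adjusted p = 8.3e-10). Oit3 was at least 7.21-fold higher and Clec4g, a C-type lectin, differed by -5.37 (SE 0.33). The members higher in lung were Wnt2, a Wnt ligand (difference 1.95, SE 0.27), and Lyve1, a hyaluronan receptor that lymphatic vessels also carry, at 14.25, 14.66, 14.45 and 14.48 in lung against 9.61, 8.80 and 9.02 in liver (difference 5.32, SE 0.25, adjusted p = 1.7e-14). One of the 2 was no longer called under all 3 scalings without lung array 2, without liver array 1 or 2, or without lung arrays 1 and 2. Mrc1, the mannose receptor of sinusoids and macrophages, was at 12.55 to 12.79 in lung and 12.16 to 12.25 in liver (difference 0.47, SE 0.20, adjusted p = 0.064).

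Connective tissue and smooth muscle were higher in lung. Fibroblast and matrix genes gave 13 of 16, smooth muscle 10 of 10 and mesothelium 6 of 6. Mesothelium gave 5 with any 1 array left out and without lung arrays 1 and 2. Smooth muscle gave 9 without lung array 2, without liver array 3, or without lung arrays 1 and 2. Mfap4, an elastic fibre protein, was at 14.14, 14.24, 14.14 and 14.33 in lung and at 4.55, 4.61 and 4.02 in liver, at least 52.7-fold higher (adjusted p = 1.3e-14). Npnt, nephronectin, was at least 68.3-fold higher, Col1a1, collagen I, at least 16.5-fold, Cnn1, calponin, at least 10.2-fold, and Upk3b and Msln, of the mesothelium, at least 13.9-fold and at least 6.95-fold. Dcn, decorin, was at 14.05 to 14.41 in lung and 13.92 to 14.09 in liver (difference 0.17, SE 0.20). Inmt, a methyltransferase of indoles, was at 15.54 to 15.67 and 15.54 to 15.73, a difference of -0.05 (SE 0.18) that was 1.33 with quantile normalization.

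Heart muscle genes were high on the lung arrays, with 10 of 11 called higher in lung and a median of 6.23, or 5.22 with bounds. Myh6, the atrial myosin heavy chain, was at 14.55, 14.38, 14.72 and 14.72 in lung and at 5.34, 4.00 and 6.10 in liver, at least 68.7-fold higher (adjusted p = 7.4e-10). Myl7, the atrial light chain, was at least 60.9-fold higher, Tnnt2 and Tnni3, cardiac troponins, at least 45.9-fold and at least 19-fold, while Nkx2-5, of the embryonic heart, was at 8.25 to 8.61 in lung, close to background. The walls of mouse pulmonary veins hold heart muscle, and in whole-organ RNA it cannot be told apart from muscle of the atria. Of 5 fat genes 3 were higher in lung, with Adipoq, adiponectin, at 12.03, 11.62, 11.69 and 12.87 and at least 11.8-fold higher than in liver. Of the squamous genes of the oesophagus and the pancreatic genes, 5 of 6 and 6 of 6 were within background in lung. The lung was within background for 5150 of all 18193 genes.

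Immune lists held genes called in both directions and many called in neither. Over 15 lists, 72 of 188 measured genes were called higher in lung, 18 higher in liver and 98 in neither direction, beside the 16.6% and 12.5% of all genes. Genes of all leukocytes were higher in lung in 9 of 13 cases and in liver in 0, with a median of 2.14, or 2.03 with bounds. With any 1 array left out 8 were called higher in lung, and 7 without lung arrays 1 and 2. Lsp1, an actin-binding protein of leukocytes, was at 12.20, 12.31, 12.46 and 12.33 in lung and at 8.36, 8.32 and 8.47 in liver (difference 3.94, SE 0.19, adjusted p = 4.1e-14), Itgb2, the integrin chain CD18, differed by 3.83 (SE 0.28) and Coro1a by 2.98 (SE 0.25). Cd37, a tetraspanin of leukocytes, was at 8.74, 7.89, 8.62 and 9.44 in lung, at least 1.13-fold higher than in liver. Vav1, a signal protein of blood cells, was at 8.76 to 8.92 in lung and 8.22 to 8.84 in liver (difference 0.35, SE 0.25, adjusted p = 0.28).

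Genes of macrophages in any organ were called in both directions. Of 18 measured genes 4 were higher in lung, 3 higher in liver and 11 in neither direction, beside the 16.6% and 12.5% of all genes. Their median was 0.41 beside the 0.29 of all genes, or -0.28 with median centring. Csf1r, the receptor of the macrophage growth factor, was at 14.07, 14.12, 14.10 and 14.33 in lung and at 14.05, 14.14 and 14.13 in liver (difference 0.05, SE 0.21, adjusted p = 0.89). Adgre1, which encodes F4/80, was at 11.23, 11.37, 10.98 and 11.27 in lung and at 11.11, 10.85 and 11.08 in liver (difference 0.20, SE 0.18, adjusted p = 0.42). The arrays of the organs overlapped for both, and the differences were -0.64 and -0.49 with median centring and 0.79 and -0.24 with quantile normalization. The members higher in lung were Lyz2, lysozyme M, which type II cells also make, at 15.65, 15.60, 15.72 and 15.71 against 12.29, 13.08 and 12.50 (difference 3.04, SE 0.29, adjusted p = 4.2e-09), and Sirpa, Cd14 and Cd68, with differences of 2.68 (SE 0.17), 1.81 (SE 0.23) and 1.76 (SE 0.24). The members higher in liver were the complement subunits C1qb and C1qc, with differences of -1.71 (SE 0.21) and -1.19 (SE 0.20), and Msr1, scavenger receptor A, at 10.98, 10.87 and 10.90 against 9.11, 8.39, 7.97 and 8.70 (difference -2.38, SE 0.48, adjusted p = 2.7e-04). Without lung arrays 1 and 2, and likewise without liver array 2, 2 genes were called higher in lung.

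Marker genes of each organ's resident macrophages were mostly higher in that organ. Alveolar macrophages gave 11 of 15 genes higher in lung and 1 in liver, with a median of 4.14, or 2.57 with bounds. Car4, the carbonic anhydrase of the capillary surface, is a member of this list as well as of the lung capillary list. Chil3, the chitinase-like protein Ym1, was at 15.22, 15.21, 15.22 and 15.18 in lung and at 4.00, 6.66 and 4.00 in liver, at least 105-fold higher (adjusted p = 9.1e-13). Siglecf, a sialic acid receptor used to gate these cells, was at 11.06, 11.26, 10.94 and 10.97 in lung and at 6.16, 5.28 and 5.76 in liver, at least 5.92-fold higher (adjusted p = 1.5e-08). The lung and liver arrays did not overlap for either gene. Plet1 differed by 4.92 (SE 0.31), and Pparg, the nuclear receptor that alveolar macrophages need, by 1.05 (SE 0.30), called with the deposited scaling and not under all 3. The member higher in liver was Slc7a2, an arginine transporter of hepatocytes as well (difference -2.45, SE 0.23).

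Kupffer cells gave 10 of 16 genes higher in liver and 1 in lung, with a median of -1.41. Without lung array 3, without liver array 1 or 2, or without lung arrays 1 and 2, 7 of the 16 were called higher in liver. Clec4f, a lectin of Kupffer cells, was at 12.89, 12.93 and 13.03 in liver and at 7.38, 7.36, 7.68 and 7.34 in lung (difference -5.51, SE 0.34, adjusted p = 2.8e-12). Cd5l, which macrophages secrete, differed by -5.46 (SE 0.44) and Vsig4, a complement receptor, by -4.63 (SE 0.43). Slc16a9, a carboxylate transporter, was the member higher in lung, at 13.16 to 13.37 against 8.96 to 9.12 (difference 4.21, SE 0.18), and Hmox1, heme oxygenase, was at 9.84 to 10.71 in lung and 10.05 to 10.65 in liver (difference -0.01, SE 0.24).

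**Figure D3:**
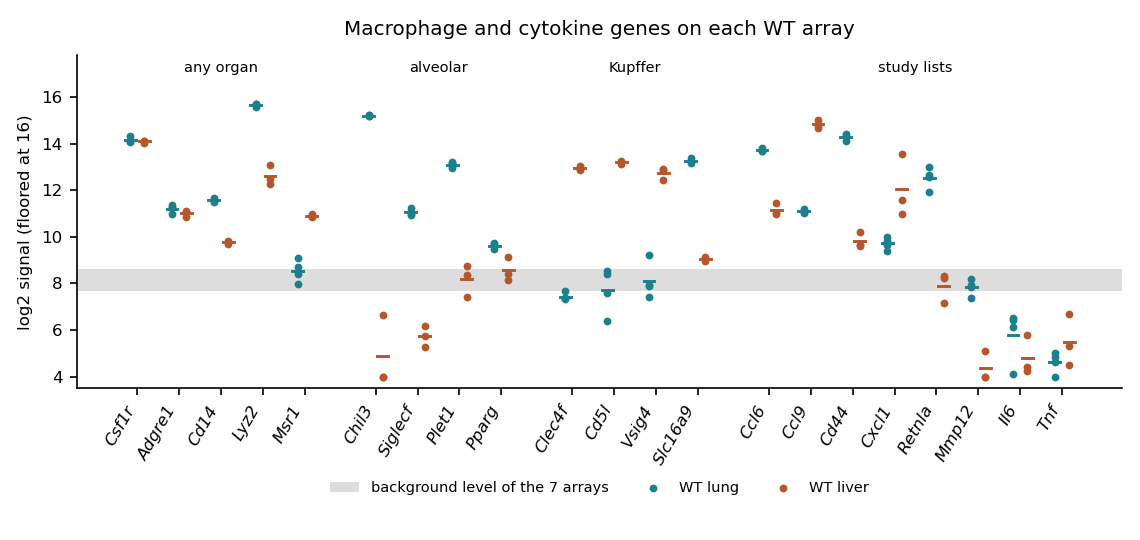
Log2 signal (y axis) of macrophage, chemokine and cytokine genes (x axis) on the 4 WT lung and 3 WT liver arrays, with 1 point per array, bars for group means, and a grey band from 7.68 to 8.63 for the background level of the arrays. Csf1r and Adgre1 lie at similar levels in both organs, Chil3 and Siglecf lie higher in lung, and Clec4f, Cd5l and Vsig4 lie higher in liver.

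Monocytes and neutrophils leaned to lung. Of 10 monocyte genes 7 were higher in lung, Chil3 among them, and 1 in liver, Treml4, a receptor of the Trem family (difference -1.44, SE 0.25). Ace, angiotensin-converting enzyme, which lung capillaries also make, was at 13.67, 13.87, 14.04 and 13.69 in lung and at 9.47, 8.91 and 9.22 in liver (difference 4.61, SE 0.26, adjusted p = 3.9e-13). Nr4a1, a nuclear receptor of patrolling monocytes, differed by 3.13 (SE 0.51), and Fcgr4, their Fc receptor, by -0.14 (SE 0.19). Of 13 neutrophil genes 5 were higher in lung and 0 in liver, with 3 in lung without lung array 3, without liver array 2, or without lung arrays 1 and 2. S100a8, a calcium-binding protein of neutrophils, was at 13.37, 13.15, 13.40 and 12.75 in lung and at 10.84, 10.22 and 9.49 in liver (difference 2.98, SE 0.41, adjusted p = 1.5e-06), and S100a9, its partner, differed by 3.01 (SE 0.41). Ltf, lactoferrin, which airway glands also make, was at least 8.56-fold higher. Mpo and Camp, which neutrophil precursors make, were within background in both organs.

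Many lymphocyte genes were within background. Of all genes 16.6% were higher in lung and 12.5% in liver, which stand beside the counts below. Of 15 T cell genes 3 were higher in lung and 0 in liver. The liver was within background for 13 of the 15, beside 7325 of all 18193 genes. The 3 T cell genes higher in lung were Lef1, a transcription factor at 9.33, 9.25, 8.88 and 9.05 in lung and at least 1.56-fold higher, Il7r, the interleukin-7 receptor, at 10.72, 10.50, 10.50 and 10.68 and at least 4.32-fold higher, and Thy1, which fibroblasts also carry, with a difference of 1.71 (SE 0.23). Of 14 genes of NK and cytotoxic cells 3 were higher in lung, with Gzma, granzyme A, at 11.96, 10.99, 10.59 and 10.87 in lung and 6.81, 8.19 and 8.84 in liver (difference 3.15, SE 0.43, adjusted p = 1.3e-06), Ccl5, a chemokine, at a difference of 2.24 (SE 0.40), and Tbx21, the factor T-bet, at 7.74 to 8.49 in lung, near background. Prf1, perforin, was at 9.44, 8.48, 8.40 and 8.57 in lung and 8.27, 8.37 and 8.61 in liver (difference 0.31, SE 0.34, adjusted p = 0.52). Of 13 B cell genes 6 were higher in lung, and 3 without lung arrays 1 and 2. Cd79a, of the B cell receptor, was at least 2.05-fold higher, Cd22 at least 4.86-fold, Ebf1, which fat and stromal cells also use, at least 3.45-fold, and Fcmr, the IgM receptor, at least 2.15-fold.

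Of 9 plasma cell genes 3 were higher in lung, 1 in liver and 5 in neither direction. Over all genes 16.6% were higher in lung and 12.5% in liver. The median of the list was 2.82, or 0.85 with bounds. IgA gave its largest difference. Igha, the IgA heavy chain, was at 13.76, 14.19, 14.12 and 13.99 in lung and at 8.87, 9.55 and 7.48 in liver (difference 5.38, SE 0.54, adjusted p = 1.1e-08), and Jchain, which joins IgA and IgM into polymers, was at 12.40, 12.38, 12.30 and 12.87 in lung and 9.61, 9.13 and 8.76 in liver, a difference of 3.32 (SE 0.58). Ighm, the IgM heavy chain, ranged from 10.70 to 13.78 among the lung arrays and was not called under all 3 scalings. Derl3, of protein quality control in the endoplasmic reticulum, was the member of 9 that was higher in liver (difference -1.54, SE 0.38), and it was not called under all 3 scalings without liver array 1.

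Antigen presentation was higher in lung for most class II genes. Of 9 MHC class II genes 7 were higher in lung and 0 in liver, with a median of 2.02, or 1.79 with bounds. Cd74, the invariant chain, was at 15.02, 15.22, 15.26 and 15.20 in lung and at 12.76, 12.68 and 12.43 in liver (difference 2.55, SE 0.17, adjusted p = 1.4e-11), and H2-Aa differed by 2.47 (SE 0.18). Type II cells make class II molecules as well as dendritic cells do. Of 12 dendritic cell genes 5 were higher in lung, among them the factors Zbtb46 (difference 2.87, SE 0.29) and Irf8 (difference 2.83, SE 0.17), and 1 in liver, the factor Batf3 (difference -1.37, SE 0.39), which was not called under all 3 scalings without any 1 of the liver arrays, without lung array 2 or 3, or without lung arrays 1 and 2. Flt3, the growth factor receptor of dendritic cells, was at 8.24, 8.16, 8.15 and 6.74 in lung, at or near background. Of 10 genes of MHC class I and the immunoproteasome 1 was called, H2-D1, at 12.78 to 12.96 in lung and 10.04 to 10.19 in liver (difference 2.71, SE 0.21, adjusted p = 1.6e-10). B2m, the shared light chain, was at 15.26 to 15.63 in lung and 16.52 to 16.76 in liver, a difference of -1.15 (SE 0.14) that was -0.14 with quantile normalization.

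**Figure D4:**
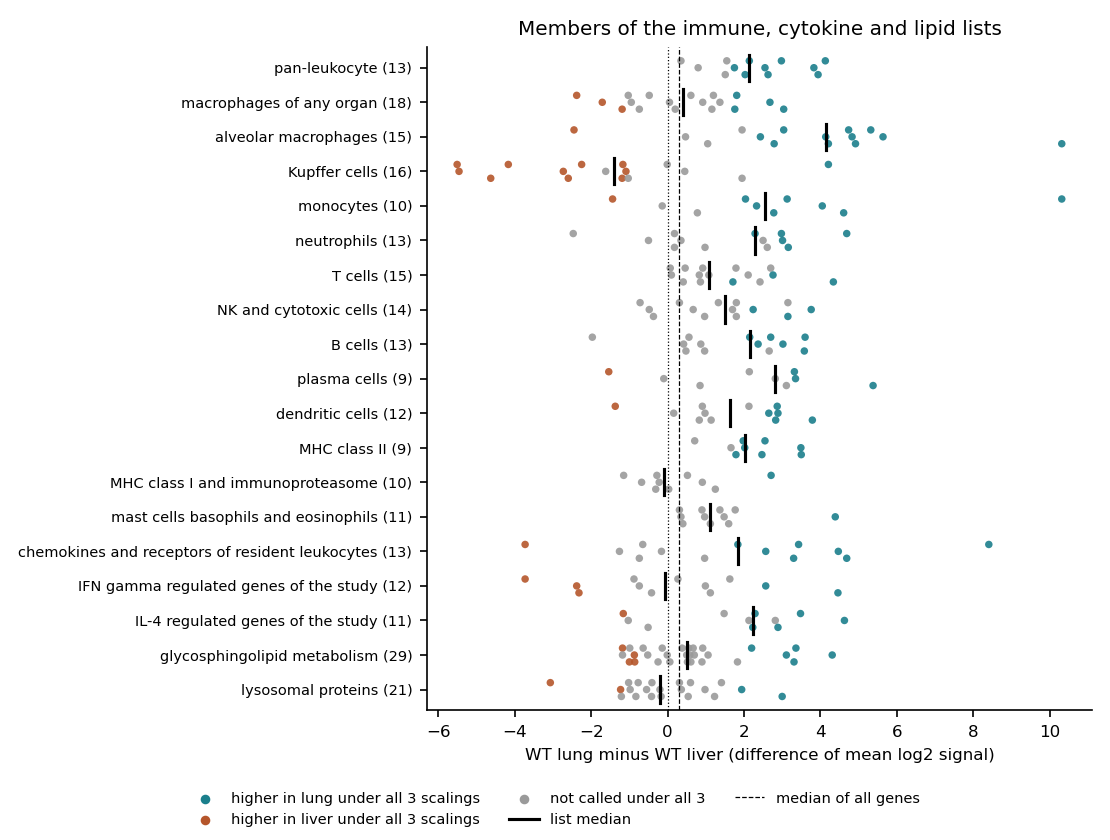
Lung minus liver difference (x axis, difference of mean log2 signal) of each measured member of the immune lists, the study's cytokine-regulated genes and the lipid and lysosome lists (y axis), with 1 point per gene coloured by the call under all 3 scalings, and list medians as bars. Medians ran from -1.41 for Kupffer cells to 4.14 for alveolar macrophages, with 0.41 for macrophages of any organ.

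Chemokines separated the organs by member. Of 13 measured genes 7 were higher in lung and 1 in liver, beside the 16.6% and 12.5% of all genes. Their median was 1.84, or 0.39 with bounds. Without liver array 1 or 3, or without lung arrays 1 and 2, 6 were called higher in lung. Cxcl15, whose window is printed above, was at 15.62, 15.60, 15.62 and 15.62 in lung and at 6.81, 7.48 and 7.32 in liver, at least 139-fold higher (adjusted p = 2.0e-10). Cxcr4, the receptor of Cxcl12, was at least 11-fold higher in lung, and Ccl11, eotaxin, was at 8.49, 8.89, 8.68 and 8.69 in lung, at least 1.15-fold higher. The myeloid chemokines Ccl6 and Ccl9 went opposite ways. Ccl6 was at 13.68, 13.70, 13.74 and 13.83 in lung and at 10.97, 11.47 and 11.04 in liver (difference 2.57, SE 0.20, adjusted p = 1.0e-10). Ccl9 was at 11.21, 11.01, 11.07 and 11.13 in lung and at 14.70, 15.02 and 14.78 in liver (difference -3.73, SE 0.26, adjusted p = 3.3e-11). Cxcl12 and Cxcl13, which stromal cells make, differed by -0.74 (adjusted p = 0.011) and -0.16 (adjusted p = 0.71).

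The study followed genes regulated by interferon gamma and by interleukin-4 in its mutants, and it chose these lists on samples that include the WT arrays, so counts over them are not independent evidence. Of 12 measured interferon gamma genes 2 were higher in WT lung, 3 in WT liver and 7 in neither direction. Over all genes 16.6% were higher in lung and 12.5% in liver. Besides Ccl6, the adhesion receptor Cd44 was higher in lung, at 14.10, 14.29, 14.40 and 14.34 against 10.20, 9.66 and 9.62 (difference 4.46, SE 0.21, adjusted p = 2.6e-14). Besides Ccl9 and Msr1, the neutrophil chemokine Cxcl1 was higher in liver, at 13.57, 10.97 and 11.58 against 9.38 to 10.01 (difference -2.32, SE 0.40, adjusted p = 3.2e-05), with liver array 1 above the other liver arrays. Ifng itself, Tnf, Il6, Nos2, Ccl2 and Ccl3 were within background in both organs.

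Of 11 interleukin-4 genes 5 were higher in lung, 1 in liver and 5 in neither direction, with 3 in lung without liver array 3 or without lung arrays 1 and 2. Retnla, the resistin-like protein of alternatively activated macrophages, had a mean level of 12.54 in lung, with the lowest level, 11.93, on lung array 3, and was at 8.33, 8.22 and 7.18 in liver, at least 16.6-fold higher in lung (adjusted p = 2.6e-08). The mean level over 5 fat genes was also higher in lung, at 7.76 to 8.61 beside 5.01 to 5.37 on the liver arrays. Among them the related Retn, resistin, was at 10.73, 10.21, 10.21 and 11.52 in lung. The part of fat in the Retnla levels was not tested. The metalloprotease Mmp9 differed by 2.29 (SE 0.41), Arg2, arginase 2, was at least 2.47-fold higher, and Mmp12, macrophage elastase, and Ccl22 were called at lung levels of 7.38 to 8.21 and 8.09 to 8.45, too near background for a bound. Mmp19 was the member higher in liver, at 10.37, 10.35 and 10.60 against 8.75 to 9.88 (difference -1.16, SE 0.31, adjusted p = 0.004), and was not called under all 3 scalings without lung array 1 or 4 or without any 1 of the liver arrays. Cd163, the haemoglobin scavenger receptor, was at 10.67, 10.47 and 10.57 in liver and 9.36 to 9.82 in lung (difference -1.03, SE 0.36, adjusted p = 0.024), and Il4 was within background in both.

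Glycosphingolipid metabolism is the pathway that Gaucher disease affects. Of 29 measured genes 5 were higher in lung, 4 higher in liver and 20 in neither direction, with a median of 0.52. These shares were near the 16.6% and 12.5% of all genes. Ugcg, the synthase of glucosylceramide, was at 9.60, 9.18, 9.19 and 8.48 in lung and at 8.74, 9.58 and 9.45 in liver (difference -0.14, SE 0.42, adjusted p = 0.83), and its arrays overlapped. Psap, the precursor of the saposins, which help lysosomal enzymes act on lipids, was at 14.88, 15.13, 15.25 and 15.07 in lung and at 14.41, 14.47 and 14.55 in liver (difference 0.61, SE 0.23, adjusted p = 0.038), without overlap, and was not called. The members higher in lung were the ceramide synthases Cers4 (at least 7.19-fold) and Cers5 (difference 3.11, SE 0.16), Sptlc2, of the first step of sphingolipid synthesis (difference 2.20, SE 0.16), Gltp, a glycolipid transfer protein (difference 3.36, SE 0.18), and Sphk1, sphingosine kinase 1 (difference 3.31, SE 0.53). Those higher in liver were Sphk2, the second kinase (difference -0.86, SE 0.26), Sgpp1, which reverses its step (difference -0.87, SE 0.22), the ganglioside synthase St3gal5 (difference -1.18, SE 0.22) and the sialidase Neu1 (difference -1.0, SE 0.18). Without liver array 1, and likewise without lung arrays 1 and 2, 2 of the 4 were called under all 3 scalings.

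Of 21 measured lysosomal genes 2 were higher in lung, 2 in liver and 17 in neither direction, with a median of -0.20. Both shares were below the 16.6% and 12.5% of all genes. Acp5, tartrate-resistant acid phosphatase, which is raised in the plasma of Gaucher patients, was at 13.64, 13.86 and 13.95 in WT liver and at 10.55, 10.80, 10.70 and 10.95 in WT lung (difference -3.07, SE 0.24, adjusted p = 1.8e-10). Lipa, lysosomal acid lipase, was higher in liver by a smaller difference of -1.23 (SE 0.16). Ctsk, cathepsin K, was at least 5.23-fold higher in lung, and Tfeb, a regulator of lysosomal genes, differed by 1.94 (SE 0.28). With lung array 2, 3 or 4 or liver array 1 or 2 left out, or without lung arrays 1 and 2, 1 gene of the list was called higher in lung under all 3 scalings. Ctsa, the protease that protects other lysosomal enzymes, and Npc1, the cholesterol exporter, differed by -0.20 (SE 0.19) and -0.17 (SE 0.29), and their lung and liver arrays overlapped.

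The lung minus liver difference of WT was also set against that of each mutant line at 28 weeks, the age they share. Both contrasts use the same 7 WT arrays, and each mutant group has 2 arrays. It differed from that of 9V/null in 16 genes, 0.0879% of 18193, and from that of 4L in 13 genes, 0.0715%. The excess was positive in 13 of the 16 and in 8 of the 13. With median centring the counts were 5 genes, 1 of them positive, and 11 genes, 4 of them positive, and with quantile normalization 17 genes, 6 positive, and 39 genes, 13 positive. Without lung array 1 the counts were 10 and 8, without liver array 3 they were 9 and 11, and without lung arrays 1 and 2 they were 4 and 5. The genes below are given with the deposited scaling, where the excess is the difference in WT minus the difference in the mutant. The size of an excess was not measured where an organ was within background, as the WT liver was for Siglecf, Gpnmb, Krt79, Diaph3, Ear3, Ang3, Clic3, Bub1 and Pof1b. Siglecf, which separated the WT organs, was at 7.50 and 7.53 in 9V/null lung and 7.76 and 8.04 in 9V/null liver, an excess of 5.70 (SE 0.89, adjusted p = 0.0042). Gpnmb, a transmembrane glycoprotein that lipid-laden macrophages make, lay at 10.94, 11.39, 11.28 and 11.22 in WT lung and 4.62, 5.48 and 5.56 in WT liver, and at 13.91 and 13.38 in 9V/null lung and 12.34 and 13.15 in 9V/null liver, an excess of 5.09 (SE 0.77, adjusted p = 0.0031). For both genes the organs lay closer together in 9V/null, where Siglecf was lower in lung than on any WT lung array and Gpnmb higher in both organs than on any WT array of the same organ. In WT, Gpnmb was at least 6.58-fold higher in lung. Ccl9 was at 13.83 and 14.06 in 9V/null lung and 14.69 and 14.05 in 9V/null liver, an excess of -3.30 (SE 0.44, adjusted p = 9.4e-04). Wfdc17, a secreted protein of macrophages, had an excess of -4.54 (SE 0.62, adjusted p = 0.0012) and the alveolar macrophage gene Krt79 one of 4.07 (SE 0.57, adjusted p = 0.0018). Of these, Ccl9 and Wfdc17 were also called with both other scalings, Siglecf and Krt79 with quantile normalization and not with median centring (adjusted p = 0.017 and 0.011), and Gpnmb with neither (adjusted p = 0.011 with median centring and 0.015 with quantile normalization).

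Liver genes were also among the 16. Fabp1 was at 8.24 and 9.30 in 9V/null lung, below the 11.91 to 12.43 of WT lung, with an excess of 4.35 (SE 0.65, adjusted p = 0.0031), and Acaa1b, a peroxisomal thiolase, was at 7.92 and 8.60 against 11.77 to 12.07, with an excess of 4.21 (SE 0.49, adjusted p = 3.1e-04). The mean level of the 19 hepatocyte secreted proteins was also lower in 9V/null lung, at 7.71 and 8.32 beside 9.74 to 10.92 on the WT lung arrays. Its part in these values was not tested. Diaph3, a formin of actin assembly, had an excess of 5.06 (SE 0.84, adjusted p = 0.0069), at WT lung levels of 7.97 to 8.80, near background, and too near it for a bound. Acaa1b was also called with both other scalings, Fabp1 not with median centring (adjusted p = 0.013), and Diaph3 with neither (adjusted p = 0.018 with each).

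Against 4L, Ear3, a ribonuclease of the eosinophil family, was at 14.74, 14.76, 14.56 and 14.72 in WT lung and at 11.95 and 11.72 in 4L lung, and at 7.49, 7.07 and 6.11 in WT liver and 8.34 and 8.48 in 4L liver, with an excess of 4.38 (SE 0.47, adjusted p = 5.4e-05). Ang3, an angiogenin, was at 11.43, 11.41, 11.37 and 11.29 in WT lung and at 5.92 and 7.24 in 4L lung, and at 5.92, 5.73 and 6.42 in WT liver and 7.45 and 8.15 in 4L liver, with an excess of 6.57 (SE 0.95, adjusted p = 0.0021). Gstp3, a glutathione transferase, was at 15.94, 15.91 and 15.95 in WT liver and at 12.04 and 12.94 in 4L liver, and at 10.05, 9.85, 9.99 and 9.50 in WT lung and 10.94 and 10.56 in 4L lung, with an excess of -4.34 (SE 0.42, adjusted p = 2.0e-05). Ear3 and Ang3 were lower in 4L lung than on any WT lung array, and Gstp3 lower in 4L liver than on any WT liver array. Clic3, a chloride channel protein, Bub1, a mitotic kinase, and Pof1b, of epithelial junctions, had excesses of -3.55 (SE 0.59, adjusted p = 0.0063), 4.39 (SE 0.68, adjusted p = 0.0038) and 3.70 (SE 0.55, adjusted p = 0.0026). In WT, Ear3 was at least 73.7-fold higher in lung, Ang3 at least 7.36-fold, Clic3 at least 27.1-fold, Pof1b at least 12.4-fold and Bub1 at least 1.14-fold, and Bub1 and Pof1b were at the floor on liver arrays 1 and 2. Pof1b also differed from 9V/null, with an excess of 3.39 (SE 0.55, adjusted p = 0.0053). Against 4L, 5 of these 6 genes were also called with both other scalings, and Bub1 not with median centring (adjusted p = 0.012), while Pof1b was called against 9V/null with neither (adjusted p = 0.023 and 0.017). The 4L mice lack the FVB part of the WT background, so line and strain cannot be told apart in these values. With the replicate number as a block, limma called 0 genes against either line, and 1436 genes against 9V/null and 2250 against 4L had an unadjusted p under 0.05.

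**Figure D5:**
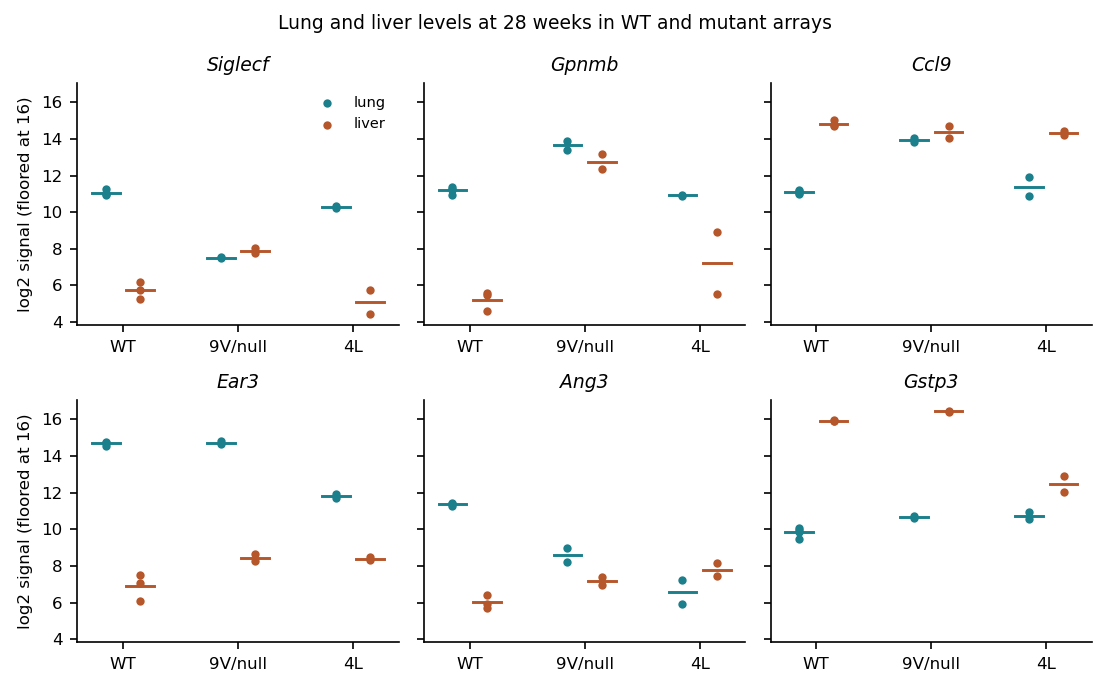
Log2 signal (y axis) of 6 genes in lung and liver at 28 weeks on the arrays of WT (4 lung, 3 liver), 9V/null and 4L mice (2 per tissue), with 1 point per array and bars for group means. Siglecf, Gpnmb and Ccl9 separate the organs in WT and less in 9V/null, and Ear3, Ang3 and Gstp3 separate them in WT and less in 4L.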

How the data were processed

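RNA of whole lung and liver, pooled from 3 mice per array, was hybridised to Affymetrix mouse whole-genome arrays. The authors captured linear signal intensity with GCOS 1.1, and the deposited intensity values were scaled to the same trimmed mean on each array. Signals under 16 were set to 16 and taken as log2. Of 45101 probe sets 64 Affymetrix controls were left out, and 45037 were fitted with limma 3.58.1 in R 4.3.3 as 18 groups over all 39 arrays (21 residual and 2.21 prior degrees of freedom), with Benjamini-Hochberg adjustment over all probe sets. A single gene symbol was held by 34945 probe sets, several by 932 and none by 9160, and 18193 genes were each given by 1 probe set. The fit was tested on simulated data. Quantile normalization, median centring, other floors, spreads and blocks, and leaving out each array were tried. Named genes were the 12 with the largest fitted difference in each direction, up to 4 called and 2 least different genes per list, and up to 6 per mutant line, and 23 were chosen after their values were seen. One item searched for in promoters is not reported here. Members and lists were chosen with earlier results of these data known. The number of arrays limits the precision.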

Additional observations from a re-analysis of the deposited data

Results flagged for a closer look

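Among the 4 WT lung arrays, 1 array stood far from the others relative to their range for 3 of 54 lists and 17 of 256 named genes, where chance flags about 1 in 20. The values below are the gap of that array to the nearest other array divided by the range of the 4, and each passed the 95% critical value of Dixon. For the lists it was 0.970 for liver sinusoidal endothelium, 0.877 for MHC class II and 0.873 for chemokines and their receptors. The lung arrays lay close together for each. Mean levels ran from 9.59 to 9.73 for the first, with lung array 1 apart. With lung array 4 apart, they ran from 11.55 to 11.59 for MHC class II and from 10.96 to 11.06 for chemokines. Lung array 1 stood apart for Ugt2b1 (0.894), Krt19 (0.912), Igfbp2 (0.921), Prf1 (0.841) and Il6 (0.830). Lung array 2 stood apart for Amdhd1 (1.0), Dhcr7 (0.964) and Hc (0.866). Lung array 3 stood apart for Lect2 (1.0), Sox2 (0.870), Clec4f (0.866), Tbx21 (0.836), Sphk1 (0.838) and Pof1b (0.881), and lung array 4 for Clec4g (0.907), Jchain (0.831) and Flt3 (0.939). Several of these gaps are small in size, such as 4.00 against 4.15 for Amdhd1 and 14.09 to 14.15 for Hc, and Lect2, Amdhd1 and Il6 were within background in lung.

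The lung minus liver difference of WT differed from that of a mutant line at 28 weeks for 12 of the genes named by rule, by a test of the difference in limma. Against 9V/null the excess of WT was 5.70 for Siglecf, 5.09 for Gpnmb, 5.06 for Diaph3, 4.35 for Fabp1, 4.21 for Acaa1b and -4.54 for Wfdc17. Against 4L it was 6.57 for Ang3, 4.39 for Bub1, 4.38 for Ear3, 3.70 for Pof1b, -4.34 for Gstp3 and -3.55 for Clic3. For Siglecf, Gpnmb, Diaph3, Ang3, Bub1, Ear3, Pof1b and Clic3 the WT liver was within background, so the size of the excess was not measured. The hepatocyte list level differed between the lung groups, as given with Fabp1 and Acaa1b, and the 4L line differs from WT in strain as well. Their part was not tested.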

How the results depend on the processing

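The calls of WT lung against WT liver were fewest with a replicate block in the fit of the 7 WT arrays. That fit left 2 residual degrees of freedom, beside 21 in the fit of all 39 arrays without a block. It called 5858 probe sets and 3300 genes, beside 14082 and 7437. Without the block the 7 WT arrays gave 14959 and 7572. The block over all arrays, with 10 residual degrees of freedom, gave 12001 and 6496. The part of the lost degrees of freedom was not tested. Same-numbered arrays did not deviate together (correlations of 0.04, -0.06 and 0.07), so the numbers were not taken to pair the pools. Leaving out each array in turn gave 12268 to 13156 probe sets, 6777 to 7111 genes and 4715 to 5147 genes under all 3 scalings, beside 5281. Of the 41 list medians of at least 1.8-fold 0 turned sign under any alternative, while over all 54 lists 9 medians did, each of at most 0.52 in size. Of 256 named genes 26 turned sign, each of at most 0.62 in size and not called, and of these Inmt was called after the turn, from -0.05 to 1.33 with quantile normalization. Of the 256, 52 were no longer called with the replicate block of the 7 WT arrays.

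The counts of genes whose difference in WT differed from that in a mutant line moved more. Against 9V/null, with 16 genes, the count was 40 at an adjusted p of 0.05, 5 with median centring, 39 with a floor of 64, 0 with a replicate block over all arrays, 4 without lung arrays 1 and 2 (chosen after seeing the data) and 9 to 15 with 1 array left out. Against 4L, with 13 genes, it was 122 at an adjusted p of 0.05, 39 with quantile normalization, 67 with a floor of 64, 36 with a trend in the spread, 20 with a filter at a mean level of 6, 0 with a replicate block over all arrays, 5 without lung arrays 1 and 2 and 8 to 19 with 1 array left out. The causes were not tested. Signals near background limit what can be said of lymphocyte, cytokine and transcription factor genes.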
